A study of Mus musculus with 2 samples.

Results

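The 7 mouse globin genes that encode the chains of hemoglobin were examined in embryonic midbrain. Members were the rows of the deposited gene and transcript tables whose gene identifier carried the name Hba-x, Hba-a1, Hba-a2, Hbb-y, Hbb-bh1, Hbb-bs or Hbb-bt in GENCODE M21. All 7 were found among 43346 measured genes, with 12 of 103639 measured transcripts, and all 7 passed the filters on low values. They comprised 3 alpha-like and 4 beta-like chains, or, by stage of use, 3 embryonic and 4 adult chains.

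The series holds 2 libraries of 1 group, the midbrain of E12.5 mouse embryos of the strain B6NCrl, untreated and of mixed sex. Replicate 1 pooled the midbrains of 120 embryos and replicate 2 those of 88. The input to each library was 10 ng of RNA, to which spike-in RNAs were added. The labels name no mutation, treatment or second tissue, so genes were compared within the tissue and the pools with each other. A pool and its library cannot be told apart here, and the pooling averages over embryos whose stages may differ slightly.

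Hemoglobin is a tetramer of alpha-like and beta-like chains, each holding a heme group. The first red cells of the mouse embryo arise in the yolk sac and circulate for days while they mature, and they make the embryonic chains Hba-x (zeta), Hbb-y (epsilon-y) and Hbb-bh1 (beta-h1) together with adult alpha chains. Red cells formed later in the fetal liver make the adult chains Hba-a1, Hba-a2, Hbb-bs and Hbb-bt. Neural tissue is not a known site of red cell formation, and dissected midbrain carries the blood of its vessels.

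The first coding exons show how far the chains differ in sequence. They are printed 5′ to 3′ on the coding strand, from GENCODE M21 transcripts on mm10, because the reads of near-identical genes have to be divided between them. In the alpha-like chains capitals mark bases that differ from Hba-a2, and in the beta-like chains those that differ from Hbb-bt.
Hba-x, chr11:32276664-32276758, plus strand: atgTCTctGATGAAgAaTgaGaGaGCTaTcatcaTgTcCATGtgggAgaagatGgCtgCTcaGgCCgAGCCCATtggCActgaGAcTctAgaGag
Hba-a2, chr11:32296524-32296618, plus strand: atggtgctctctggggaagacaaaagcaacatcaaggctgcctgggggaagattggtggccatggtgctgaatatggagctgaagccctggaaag
Hbb-y, chr7:103853061-103853152, minus strand: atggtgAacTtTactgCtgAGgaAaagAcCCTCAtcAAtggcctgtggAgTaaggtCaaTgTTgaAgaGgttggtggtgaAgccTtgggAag
Hbb-bh1, chr7:103843019-103843110, minus strand: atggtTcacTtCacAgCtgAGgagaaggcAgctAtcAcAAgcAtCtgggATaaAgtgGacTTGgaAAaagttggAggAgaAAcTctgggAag
Hbb-bt, chr7:103813778-103813869, minus strand: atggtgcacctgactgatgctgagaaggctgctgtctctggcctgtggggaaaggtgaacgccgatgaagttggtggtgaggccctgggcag
The first coding exon of Hba-a1 (chr11:32283707-32283801) had 0 differences from Hba-a2, and that of Hbb-bs (chr7:103827784-103827875) had 0 differences from Hbb-bt. In the same exon Hba-x differed from Hba-a2 at 45 of 95 bases, Hbb-y from Hbb-bt at 26 of 92 and Hbb-bh1 from Hbb-bt at 29 of 92.

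Over the whole coding sequence each adult pair differed at 1 base. With positions counted from 1 at the A of the start codon and the stop codon left out, the alpha pair differed by C381T (Hba-a1 first) over 426 bases and the beta pair by C417T (Hbb-bs first) over 441 bases. The embryonic chains were far from their adult counterparts. Hba-x was 61.7% identical to Hba-a1, and Hbb-y was 76.4% identical to Hbb-bh1, 74.4% to Hbb-bs and 74.1% to Hbb-bt. Within each adult pair, 1 coding base and the parts outside the coding sequence are left to tell the genes apart.

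In both libraries globin RNA was abundant. The 7 genes held 152156 of 28212923 gene counts in replicate 1, which is 0.539% (exact 95% binomial interval 0.537 to 0.542%), and 225429 of 36082643 in replicate 2, which is 0.625% (0.622 to 0.627%). These intervals cover counting error only, and the mean was 0.582% ± 0.0604 (SD, n = 2). On the deposited TPM scale, an abundance scaled to effective length and library size, the 7 genes summed to 16516 TPM in replicate 1 and 19435 TPM in replicate 2. In bulk tissue, fewer blood cells and less globin RNA per cell cannot be told apart.

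Among the alpha-like chains, the embryonic gene Hba-x (chr11:32276400-32278116) was at 1263 (replicate 1) and 1430 TPM (replicate 2). The adult gene Hba-a1 (chr11:32283511-32284465) was at 2291 and 2788 TPM. Its near-identical neighbour Hba-a2 (chr11:32296489-32297298) was at 5002 and 6071 TPM. Every alpha-like gene was higher in replicate 2, and the ranges of the 3 genes did not overlap. The adult pair thus stood above the embryonic gene in each library.

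The beta-like chains were arranged the other way. Hbb-y (chr7:103851749-103853216) was at 6354 (replicate 1) and 7191 TPM (replicate 2), and ranked 2 among nuclear protein-coding genes in each library. The second embryonic gene, Hbb-bh1 (chr7:103841637-103843164), was at 501 and 556 TPM. The adult gene Hbb-bt (chr7:103812524-103813996) was at 746 and 934 TPM. The adult gene Hbb-bs (chr7:103826534-103828096) was lowest of the 7 at 360 and 465 TPM. Replicate 2 was again the higher library for every gene, and no ranges overlapped.

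From high to low, the means were 6772 ± 592 TPM for Hbb-y, 5537 ± 756 for Hba-a2, 2540 ± 351 for Hba-a1, 1346 ± 118 for Hba-x, 840 ± 133 for Hbb-bt, 528 ± 39.4 for Hbb-bh1 and 413 ± 74.3 for Hbb-bs (SD, n = 2). The order was the same in both libraries. The closest neighbours were Hbb-bh1 and Hbb-bs, whose ranges were 35.4 TPM apart, and Hbb-y and Hba-a2, 282.6 TPM apart. The SD of Hbb-bh1 and that of Hbb-bs were each wider than that gap. With only the TPM of coding transcripts counted, the ranking changed, since Hba-a1 then had 571 and 626 TPM, below Hba-x and Hbb-bt, and Hbb-bs had 109 and 155 TPM.

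**Figure D1:**
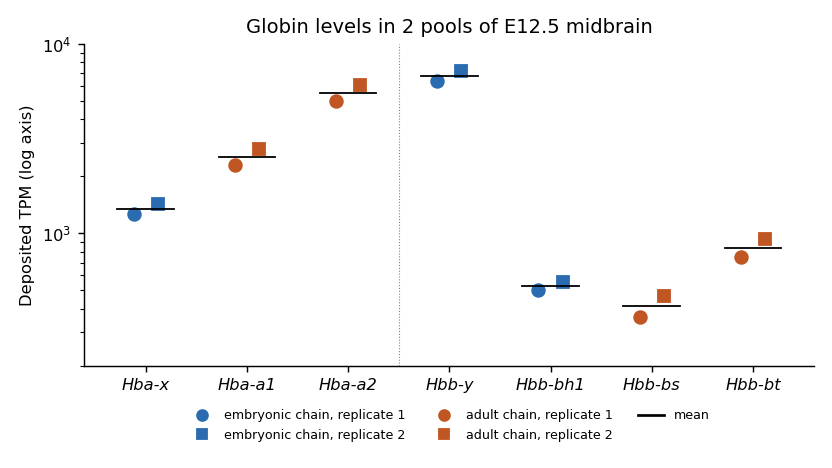
Deposited TPM of the 7 globin genes on a log axis, with replicate 1 as circles, replicate 2 as squares, embryonic chains in blue, adult chains in orange and the mean as a line. Alpha-like genes are left of the dotted line. Hbb-y is the highest gene at 6354 and 7191 TPM, and replicate 2 lies above replicate 1 for every gene.

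The embryonic share differed between the chain classes. Hba-x made up 14.8% of alpha-like TPM in replicate 1 and 13.9% in replicate 2 (14.3% ± 0.608, SD, n = 2). Hbb-y and Hbb-bh1 together made up 86.1% of beta-like TPM in replicate 1 and 84.7% in replicate 2 (85.4% ± 0.993). The alpha-like pool of RNA was thus mostly of adult type and the beta-like pool mostly of embryonic type, in each library. Over all 7 genes, embryonic chains held 49.1% of globin TPM in replicate 1 and 47.2% in replicate 2.

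The same contrast stood on other scales, with other values. By expected counts, which are not divided by length, the embryonic share of alpha-like RNA was 20.0% in replicate 1 and 19.0% in replicate 2, and that of beta-like RNA 85.7% and 84.3%. By the TPM of coding transcripts only, it was 18.5% and 17.6% for alpha-like RNA and 88.9% and 87.7% for beta-like RNA.

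Summed alpha-like and beta-like RNA were close to each other. The ratio of alpha-like to beta-like TPM was 1.07 in replicate 1 and 1.12 in replicate 2 (1.10 ± 0.0354, SD, n = 2). By expected counts the ratio was 0.923 and 0.959, and by coding transcripts only 0.887 and 0.920, so whether the alpha-like or the beta-like sum was the larger depended on the scale. Within each stage the 2 classes were far from equal. Adult alpha TPM was 6.60 and 6.33 times adult beta TPM, and Hba-x was 0.184 and 0.185 times the embryonic beta TPM. The larger parts were adult alpha RNA, at 7294 and 8859 TPM, and embryonic beta RNA, at 6854 and 7747 TPM.

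**Figure D2:**
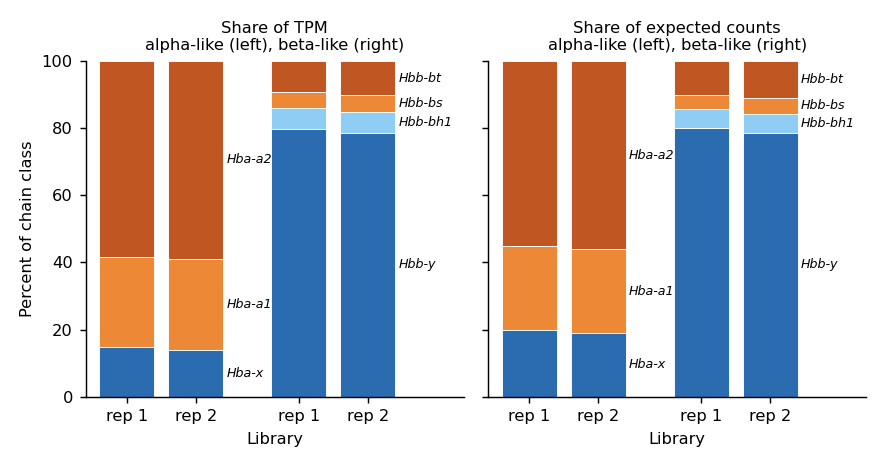
Percent of alpha-like (left pair of bars in each panel) and beta-like (right pair) globin RNA held by each gene in each library, by deposited TPM (left panel) and by expected counts (right panel). Blue parts are embryonic chains and orange parts adult chains. The blue part of the alpha-like bars reaches 14.8% and 13.9% of TPM, and that of the beta-like bars 86.1% and 84.7%.

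Within each stage and class, 1 gene led. Hbb-y held 92.7% of the embryonic beta TPM in replicate 1 and 92.8% in replicate 2. Primitive red cells are known to use Hbb-bh1 early and Hbb-y later in their maturation. Hbb-bs held 32.6% and 33.3% of the adult beta TPM, and Hba-a1 held 31.4% and 31.5% of the adult alpha TPM. The last 2 shares rest on how reads of near-identical genes were divided and on the retained-intron transcripts. With the TPM of coding transcripts only, Hbb-bs held 12.8% and 14.2% of adult beta and Hba-a1 held 10.3% and 9.34% of adult alpha TPM. The authors' posterior SD of the gene count, which does not cover the choice of transcripts counted, was 0 for Hba-x, Hbb-y and Hbb-bh1. It was 60.7 counts in replicate 1 for Hbb-bs (3314 counts) and for Hbb-bt (7981 counts), and 165 counts for Hba-a1 (18110 counts) and for Hba-a2 (40323 counts).

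The 2 pools were then compared. Expected counts were rounded and each gene was tested with a two-sided exact binomial test against the TMM-scaled library sizes, with Benjamini-Hochberg adjustment over all genes with at least 10 counts summed. The test covers counting error and compares these libraries, not conditions. At an adjusted p under 0.05 and a ratio of at least 1.5-fold, 2.14% of 15199 genes at a mean of 1 TPM or more were higher in replicate 2 and 1.41% were lower. None of the 7 globin genes was called in either direction by this rule. At any ratio, 12.3% of genes were higher in replicate 2 with an adjusted p under 0.05 and 14.1% were lower, and all 7 globin genes were among the higher. The deposited TPM intervals of the pools were apart, with replicate 2 higher, for 10.8% of genes and for all 7 globin genes.

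The ratios were small. The log2 ratio of replicate 2 over replicate 1 was lowest for Hbb-bh1 at 0.12 (95% interval 0.07 to 0.18, exact binomial adjusted p = 0.00016). Hbb-y was at 0.15 (0.13 to 0.16) and Hba-x at 0.15 (0.12 to 0.18). The adult alpha genes were higher, with Hba-a1 at 0.24 (0.21 to 0.26) and Hba-a2 at 0.25 (0.23 to 0.27). The adult beta genes were highest, with Hbb-bt at 0.29 (0.25 to 0.33) and Hbb-bs at 0.36 (0.30 to 0.42, exact binomial adjusted p = 8.14e-28), which is 1.28-fold. The median over the 7 genes was 0.24, beside -0.001 over all 15199 genes. Scaled to spike-in totals, the median of all genes was 0.27, the globin ratios ran from 0.40 to 0.63 and Hbb-bs was called. The share of all genes called with spike-in totals was not counted, so this call has no background beside it. A scaling adds the same constant to every ratio, so the globin median is 0.24 above that of all genes under each.

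The spread among other well-counted genes gives the scale of these ratios. The log2 ratio had an SD of 0.14 over the 7181 genes whose mean count reached 1000. Of those genes, 10.9% had a higher ratio than Hbb-bh1, 7.94% a higher ratio than Hbb-y and 1.42% a higher ratio than Hbb-bs. With a common dispersion estimated from the 2 libraries, the exact negative binomial test of edgeR gave 0 of 7 globin genes at an adjusted p under 0.05 and 0 of 7 at an unadjusted p under 0.05, where the lowest unadjusted p was 0.066, for Hbb-bs. The globin differences thus passed the test that covers counting error and did not pass the negative binomial test. The dispersion of the latter was estimated from these same 2 libraries, so the difference between the pools is itself counted as spread. Not passing it therefore cannot decide whether the pools differ in globin RNA.

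All 3 embryonic ratios lay below all 4 adult ratios, with a highest embryonic value of 0.15 and a lowest adult value of 0.24. This order does not depend on the library scaling, which moves every ratio alike, but it depends on the transcripts counted. By the TPM of coding transcripts only, Hba-a1 had 571 and 626 TPM, a smaller relative rise than that of any embryonic gene. On that scale Hba-x had 1263 and 1430 TPM, Hbb-y 6354 and 7191 TPM and Hbb-bh1 501 and 556 TPM. The adult genes form near-identical pairs whose reads have to be divided, so their ratios are not 4 separate observations. With each pair summed, the ratio was 0.24 for adult alpha and 0.31 for adult beta RNA. The embryonic share differed by -1.02 percentage points of alpha-like counts and by -1.47 percentage points of beta-like counts (replicate 2 minus replicate 1). The odds of an embryonic count in replicate 1 over replicate 2 were 1.07 for alpha-like RNA (95% interval 1.04 to 1.09, two-sided Fisher's exact test, p = 6.62e-08 adjusted over the 2 classes). They were 1.12 for beta-like RNA (1.09 to 1.15, Fisher's exact test, adjusted p = 1.03e-18). The widest share that the deposited TPM intervals allow was 14.3 to 15.2% in replicate 1 and 13.6 to 14.2% in replicate 2 for alpha-like RNA, and 85.6 to 86.6% and 84.2 to 85.2% for beta-like RNA, so the intervals of the pools did not overlap. The Fisher p-values cover counting error only, and 2 libraries allow no test of the spread between pools.

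**Figure D3:**
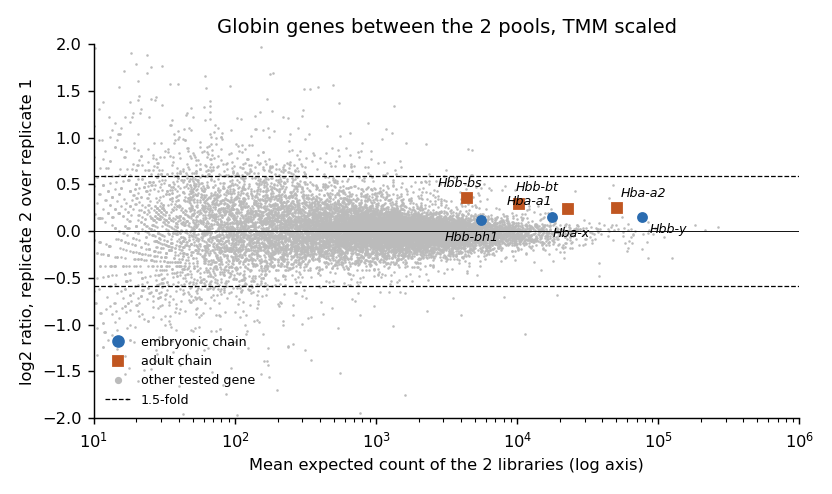
Log2 ratio of replicate 2 over replicate 1 (TMM scaled) against the mean expected count on a log axis for each tested gene at a mean of 1 TPM or more; values beyond the vertical axis of -2 to 2 are not shown. The globin genes lie between 0.12 and 0.36, all inside the dashed 1.5-fold lines, with the blue embryonic chains below the orange adult chains.

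Markers of other tissues also differed between the pools, in part in the opposite direction. Of 6 genes known from yolk sac endoderm or liver, 4 were tested and all 4 were called lower in replicate 2, beside 1.41% of all genes. Afp, which encodes alpha-fetoprotein, had 419 counts (11.9 TPM) in replicate 1 and 4 counts (0.09 TPM) in replicate 2. Apoa1 had 89 and 23 counts, and Apoa2 had 37 and 19 counts, both apolipoproteins. Ttr, the carrier transthyretin that choroid plexus also makes, had 768 and 346 counts. The liver genes Alb and Serpina1a were at 0 in both libraries, and the summed level of the 6 genes was 61.3 TPM in replicate 1 and 17.3 TPM in replicate 2. Replicate 1, with more of these RNAs, was also the library with the larger embryonic share of globin, and their part in that difference was not tested.

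The summed levels of blood and vessel cell markers were higher in replicate 2, although most single markers did not pass the test. The counts below stand beside 12.3% of all genes higher and 14.1% lower at an adjusted p under 0.05. With the 1.5-fold threshold added, 2.14% of all genes were called higher. The 10 erythroid markers other than globins summed to 71.3 TPM in replicate 1 and 88.0 TPM in replicate 2, with 3 of 10 higher at an adjusted p under 0.05 and none lower. The 6 endothelial markers summed to 114.4 and 128.0 TPM (3 of 6 tested higher, 1 lower). The 6 macrophage and microglia markers summed to 82.6 and 102.2 TPM (3 of 5 tested higher), and the 6 platelet markers to 67.2 and 79.0 TPM (1 of 5 tested higher). Single abundant genes weigh heavily in such sums. Pf4 had 46.9 and 57.7 TPM among the platelet markers, of which Gp1bb (9.16 and 8.22 TPM) and Ppbp (5.29 and 5.23 TPM) were lower in replicate 2. Alas2 had 27.5 and 36.6 TPM among the erythroid markers, of which Klf1 (3.62 and 3.52 TPM) was lower. The 4 young neuron markers summed to 1904 and 1817 TPM, and all 4 were lower at an adjusted p under 0.05. All 5 midbrain markers were detected, at a sum of 288 and 338 TPM. At an adjusted p under 0.05, 3 of 5 were higher and 1, Otx2 (146.6 and 141.8 TPM), was lower, and Cnpy1, a gene of the midbrain-hindbrain border, was called higher in replicate 2 (77.7 and 121.6 TPM). In contrast, the 5 hindbrain and 4 lymphocyte markers were each under 1 TPM, with Cd3e and Cd3g at 0. The part of cell makeup in the globin ratios was not tested.

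Transcript models bear on the levels of the adult genes. Hbb-y, Hbb-bh1 and Hbb-bt each have 1 measured transcript. Hba-x has 2 coding transcripts, and Hba-x-201 held 77.7% of its TPM in replicate 1 and 78.2% in replicate 2. For Hba-a2, the coding transcript Hba-a2-201 held 100% in both libraries, and the retained-intron transcript Hba-a2-202 was given 0 and 2.69 counts. The other adult alpha gene was reported with the reverse makeup. Hba-a1-202, a retained-intron transcript that is not annotated as coding, held 75.1% and 77.6% of Hba-a1 TPM, and the coding Hba-a1-201 held 24.9% and 22.4%. For Hbb-bs, the retained-intron transcript Hbb-bs-202 held 69.6% and 66.7%, the coding Hbb-bs-201 held 30.4% and 33.3%, and Hbb-bs-203 was listed at 0 in both.

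The deposited values cannot separate the retained-intron transcripts of the adult alpha genes well from their neighbours. Effective length was annotated length minus 99, so each transcript was cut into 100-base windows and each window was searched in all GENCODE M21 transcripts. Of the 395 windows of Hba-a1-202, 0 occurred in that transcript alone, 284 also occurred in Hba-a1-201 and 299 in Hba-a2-202. Its intron part is printed from GENCODE M21 because it is the stretch that would mark an unspliced molecule.
Hba-a1-202, chr11:32283811-32283923, plus strand: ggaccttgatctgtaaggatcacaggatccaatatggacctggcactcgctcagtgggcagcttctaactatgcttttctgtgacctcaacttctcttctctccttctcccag
These 113 bases had 0 differences from the matching bases of Hba-a2-202 (chr11:32296628-32296740), and the transcripts differed at 1 of 494 bases in all. The deposited values nevertheless gave 12036 and 19136 counts to Hba-a1-202 and at most 2.69 counts to Hba-a2-202. Reads over the shared intron were not analysed here, so no level of unspliced alpha-globin RNA can be read from these percentages.

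Sharing was narrow for the embryonic genes and wide for the adult pairs. All windows of Hba-x, Hbb-y and Hbb-bh1 transcripts occurred in no other gene. The share of windows found in no other gene was 43.5% for Hba-a1-201, 25.5% for Hba-a2-201, 37.4% for Hbb-bs-201 and 45.2% for Hbb-bt-201. Only 20 of the 455 windows of Hba-a2-201 occurred in no other transcript. The windows come from M21, and 8 of the 12 transcripts have the length given in the deposited M4 tables. The exceptions are Hbb-y-201, Hbb-bh1-201, Hbb-bs-201 and Hbb-bs-202, of which Hbb-bs-202 was 549 bases in M4 and 344 in M21.

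Annotated starts differ between GENCODE M21 and RefSeq for some members, which can bear on levels per length. Hba-x-201 starts 200 bases and Hba-a1-201 161 bases upstream of the RefSeq start of the gene on GRCm38.p6, while Hba-a2-201 starts 3 bases and Hbb-bs-201 0 bases upstream. Hbb-bt-201 starts 73 bases, Hbb-y-201 9 bases and Hbb-bh1-201 2 bases upstream. A longer model divides the same count by a larger length. The deposited levels rest on M4 models, so these offsets need not be those of the models that gave the levels. Hbb-bs-201 was 778 bases in M4 and 628 in M21, and Hbb-y-201 was 661 and 633.

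**Figure D4:**
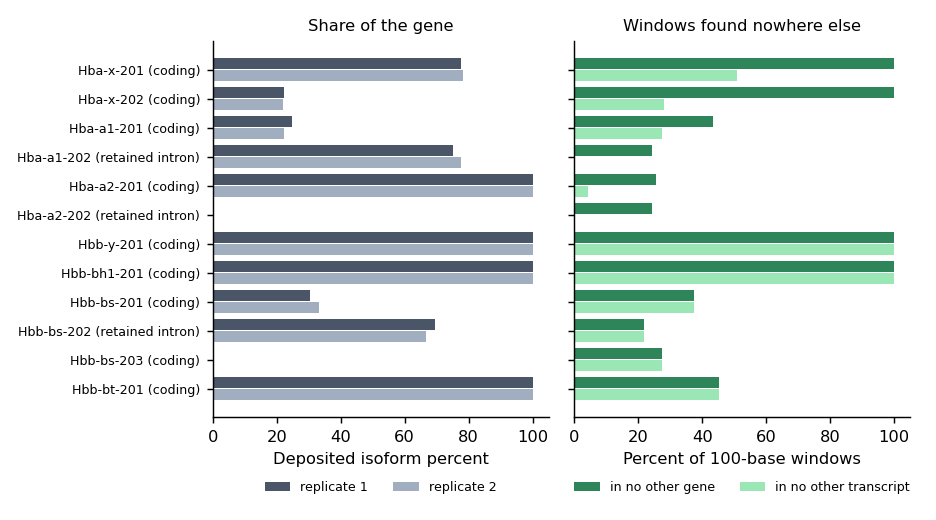
Left, the deposited isoform percent of each globin transcript in replicate 1 (dark) and replicate 2 (light). Right, the percent of its 100-base windows that occur in no other gene (dark green) and in no other transcript (light green). Hba-a1-202 holds 75.1% and 77.6% of its gene with 0 windows of its own.

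Promoter sequences were read from RefSeq (GRCm38.p6) to compare the embryonic with the adult genes. They matched 6 of the 7 members, and Hbb-bh1 was not among them. The bases from 45 to 16 upstream of the RefSeq start are printed on the coding strand to show the TATA box, which positions transcription start, with the letters TATAA in capitals.
Hba-x, chr11:32276555-32276584, plus strand: gtccctgaccatgtgtaTATAAaggagaca
Hba-a2, chr11:32296447-32296476, plus strand: cgcccttggagggcaTATAAgtgctacttg
Hbb-y, chr7:103853223-103853252, minus strand: aacattgtctgtgaagcataaaaggccacc
Hbb-bs, chr7:103827944-103827973, minus strand: gagccagggcagagcaTATAAggtgaggta
Hbb-bt, chr7:103813939-103813968, minus strand: ggagccagcattgggtaTATAAagctgagc
TATAA occurred within 200 bases upstream of 5 of the 6 members and of 18.5% of 32851 RefSeq promoters, on either strand. The window of Hbb-y held no exact TATAA, and variants of these letters were not searched, so a TATA-type element there was not tested. The Hba-a1 and Hba-a2 promoters were the same over 197 bases once shifted by 3.

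A further 4 short motifs were searched on both strands of the same windows. CACCC, the core of sites bound by KLF1, occurred in all 6 members and in 45.5% of all promoters. CCAAT, a site of NF-Y, occurred in Hba-a1, Hba-a2, Hbb-y, Hbb-bs and Hbb-bt and in 29.3% of all promoters. The motif GATAA, to which the main transcription factor of red cells binds, occurred in Hba-x, Hba-a1, Hba-a2 and Hbb-y and in 18.1%. TGACC, a part of the sites bound by the nuclear receptors Nr2c1 and Nr2c2, occurred in Hba-x, Hbb-y and Hbb-bt and in 29.4%.

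Hbb-y held 5 matches to TGACC, against 1 in Hba-x and 1 in Hbb-bt, and 5 or more occurred in 0.0304% of all promoters. Its 200 bases upstream of the RefSeq start are printed with matches to the 5 motifs in capitals; 1 TGACC overlaps the CCAAT.
Hbb-y, chr7:103853208-103853407, minus strand: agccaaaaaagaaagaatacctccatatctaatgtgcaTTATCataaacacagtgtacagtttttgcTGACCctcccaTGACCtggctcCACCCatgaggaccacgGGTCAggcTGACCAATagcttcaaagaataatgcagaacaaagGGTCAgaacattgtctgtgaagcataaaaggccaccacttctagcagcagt
These are matches of letters and were not measured as sites. Repeats over all promoters were counted for TGACC only, 1 motif picked among the 5. Hbb-bt held 3 matches to CCAAT and 3 to CACCC, which have no such share beside them.

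Regulators of globin genes had lower gene-level TPM than any of the 7 globins. Of 17 listed regulators, 16 were tested, 0 were higher and 2 were lower in replicate 2 at an adjusted p under 0.05, beside 12.3% higher and 14.1% lower over all genes. None reached 1.5-fold, and the median log2 ratio was -0.02 (range -0.50 to 0.28). The lower ones were Nr2c2, at 25.5 and 23.3 TPM (log2 ratio -0.19, exact binomial adjusted p = 0.000427), and Lin28b, an RNA-binding protein of fetal cells, at 8.99 and 6.52 TPM (-0.50, adjusted p = 1.79e-10). The highest were Ldb1, a bridging cofactor of the erythroid GATA1 complex, at 110 and 106 TPM, and Bcl11a, a repressor of embryonic and fetal globins that neurons also make, at 54.0 and 54.3 TPM. Lmo2, a partner of Ldb1, was at 23.9 and 23.5 TPM. The more strictly erythroid factors were low. Klf1 was at 3.62 and 3.52 TPM, and Gata1 at 1.24 and 1.27 TPM, a pair of genes named after their values were seen. Several of these genes are also made by neural or vessel cells, so their levels are not those of red cells.

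Genes of heme synthesis and iron uptake were all detected. Of 11, 4 were higher in replicate 2 at an adjusted p under 0.05 and 0 lower, beside 12.3% and 14.1% of all genes. None reached 1.5-fold, with a median log2 ratio of 0.07 (range -0.03 to 0.33). Alas2, the erythroid enzyme of the first step, was at 27.5 and 36.6 TPM (log2 ratio 0.33, exact binomial adjusted p = 8.41e-07). Urod (63.6 and 70.0 TPM) and Fech (27.0 and 30.7 TPM), enzymes of later steps made in most cells, were also higher. Alad was at 55.0 and 55.5 TPM, and the transferrin receptor gene Tfrc at 48.9 and 52.6 TPM, with adjusted p-values of 0.83 and 0.67.

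Red cell membrane and enzyme genes were examined likewise. Of 15 tested, 3 were higher in replicate 2 and 1 was lower at an adjusted p under 0.05, beside 12.3% and 14.1% of all genes. None reached 1.5-fold, with a median log2 ratio of 0.13 (range -0.33 to 0.57). The listed gene Ahsp was not analysed here. The higher ones were Slc4a1, the anion exchanger band 3, at 21.5 and 25.0 TPM, Blvrb, biliverdin reductase B, at 17.6 and 24.5 TPM, and Epb42, the membrane protein 4.2, at 3.22 and 4.64 TPM. Epb42 had the largest of these log2 ratios, 0.57 (exact binomial adjusted p = 0.0023). The lower one was Epb41, protein 4.1, which neurons also make, at 194 and 179 TPM. Bpgm, the enzyme that makes bisphosphoglycerate, was at 60.8 and 63.3 TPM and Car2, carbonic anhydrase 2, at 42.8 and 47.8 TPM, with adjusted p-values of 0.088 and 0.051.

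The 10 erythroid markers that are not globins had a median log2 ratio of 0.16, beside 0.15 for the 3 embryonic and 0.27 for the 4 adult globin genes. The lists share members (Alas2, Slc4a1 and Epb42 among them), and no test compared them.

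**Figure D5:**
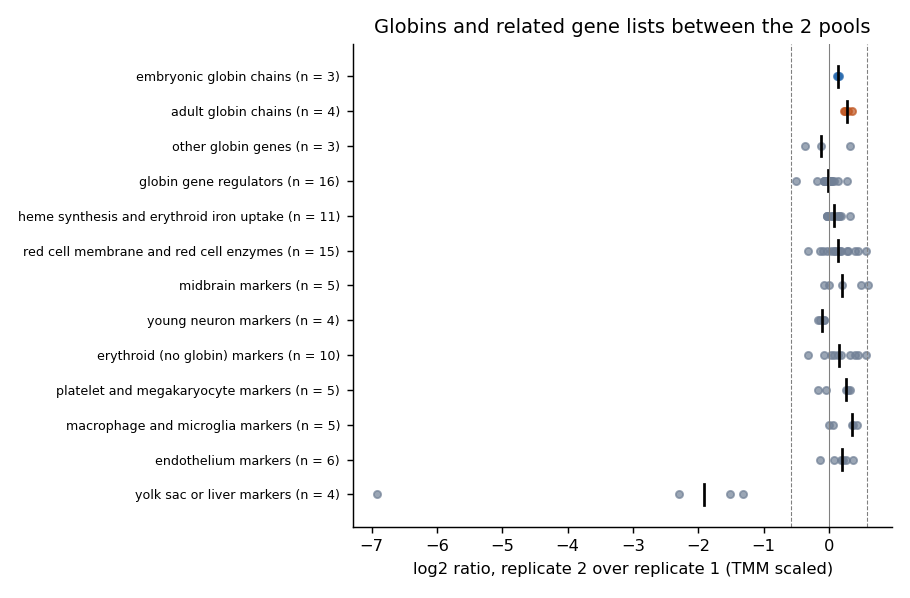
Log2 ratio of replicate 2 over replicate 1 (TMM scaled) for tested genes of each list at a mean of 1 TPM or more, 1 point per gene, with the median as a black line and 1.5-fold as dashed lines. Embryonic globins sit at 0.12 to 0.15 and adult globins at 0.24 to 0.36, while the 4 yolk sac or liver genes lie between -6.91 and -1.31.

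Other members of the globin family had few counts. Of 10 listed genes, 9 were measured, and Hba-ps3 was not analysed here. Hbb-bh0 had 10 and 12 counts, which its very short model turned into 18.8 and 17.9 TPM. The theta-globin genes Hbq1b and Hbq1a had 32.4 and 32.0 counts and 6.56 and 6.98 counts. Cytoglobin (Cygb), a globin of fibroblast-like and other cells, had 89.4 and 143.7 counts (log2 ratio 0.32, exact binomial adjusted p = 0.25), and neuroglobin (Ngb), a globin of neurons, had 15 counts in each library. The pseudogene Hba-ps4 had 1 and 3 counts, Hbb-bh2 had 0 and 1, myoglobin (Mb) had 1 and 0, and Hbb-bh3 was at 0 in both. None of the 3 that were tested at a mean of 1 TPM or more passed the exact binomial test at an adjusted p under 0.05.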

How the data were processed

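Total RNA of 2 pools of E12.5 midbrain was sequenced. Per the labels, RNA longer than 200 nt was extracted with mirVana, the manual of a SMARTer Ultra Low kit is linked, and the assembly was mm10. The sources used here give neither the aligner nor the counter. The deposited expected counts are, per the file headers, the authors' estimates per gene and transcript, with fractions. The deposited TPM is normalised by the authors to effective length and library, and a posterior mean TPM stands beside it. The deposited interval bounds of TPM were treated as a signal on that scale. The deposited isoform percent is a transcript's share of its gene.

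Names and coordinates came from GENCODE M21, and the tables use M4. Replicate 1 held 29430493 counts and replicate 2 held 37381984, of which spike-ins took 4.14% and 3.48% and genes without a name 0.293% and 0.284%. Spike-ins were left out of library sizes. TMM factors (edgeR 4.0.16, R 4.3.3) were 0.995 and 1.005. Expected counts were rounded for tests, and 0.5 counts were added for log2 ratios. The two-sided exact binomial test ran on genes with at least 10 counts summed. Calls required an adjusted p under 0.05, at least 1.5-fold and a mean of at least 1 TPM. Its intervals cover counting error only. With 1 group of 2 libraries, edgeR's quasi-likelihood test has no residual degrees of freedom and was not run.

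The members, gene lists and motifs were chosen with earlier results of these data known. All 7 members are described, and each list names its 4 most abundant genes and those that passed the test, while marker lists are given by sums and counts. One gene that this rule takes is not reported here by name. Steps were tested on simulated data. Alternatives were posterior mean TPM, counts, coding transcripts only, other scalings (DESeq2 1.42.0 size factors, total counts, spike-ins), thresholds, edgeR's exact test and leaving out each library. Scripts used Python 3.11.15, scipy 1.17.1 and pandas 2.3.3.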

Additional observations from a re-analysis of the deposited data

How the results depend on the processing

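Of 146 alternative values, 110 stayed within the spread or on their side of the threshold, 35 moved by more and 1 passed the 1.5-fold threshold. Some of the 110 could not move. With 2 libraries, leaving out either always stays within their SD, and summing the near-identical adult genes leaves the embryonic shares unchanged. The ratio of a single gene counted as staying if it kept its sign and was not called, whatever its size. Among those that moved, the alpha to beta ratio went from above to below 1 on 2 scales. The cause of the moves was not tested unless the setting itself gives it. By expected counts not divided by length, the embryonic share was 19.5% for alpha-like RNA, the alpha to beta ratio 0.941, the Hbb-y share of embryonic beta 93.3%, the Hbb-bs share of adult beta 29.8%, the Hba-a1 share of adult alpha 30.9%, and the Hba-a1-202 share of Hba-a1 68.0%. By the TPM of coding transcripts only, which leaves out retained-intron transcripts, the embryonic share was 18.0% for alpha-like and 88.3% for beta-like RNA, the alpha to beta ratio 0.903, the Hbb-bs share 13.5% and the Hba-a1 share 9.80%. The difference of the embryonic share between the pools kept its direction on that scale, an alternative chosen after seeing the data.

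Of the 7 members, 0 were called at 1.5-fold, 1 with spike-in totals (Hbb-bs, log2 ratio 0.63) and 7 with no fold threshold. Over all genes, 2.14% were higher and 1.41% lower at 1.5-fold, and 12.3% and 14.1% with no fold threshold. The share of all genes called with spike-in totals was not counted. The median log2 ratio was 0.51 with spike-in totals, 0.28 by deposited TPM and 0.29 by posterior mean TPM. The summed TPM was 22708 after rescaling to nuclear protein-coding genes, and globins held 1.98% of TPM over genes. Leaving out either library gave 13.9 to 14.8% and 84.7 to 86.1% for the embryonic shares and 0.539 to 0.625% for the globin share of gene counts. No paired analysis was possible because the labels give 1 group. With 2 libraries the spread between pools cannot be tested.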
